A study of Rattus norvegicus with 3 samples.

Results

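Potassium channel genes were taken as all probe sets whose single annotated symbol starts with Kcn. There were 126 such probe sets for 75 genes, among 14217 genes with a symbol of their own on the array. Each gene was represented by 1 probe set, the one with the highest mean over 1-day array b and the 7-day array. The samples were total RNA labelled as adrenal medulla, taken from rats after cold exposure for 7 days (1 array) or for 1 day (2 arrays, replicates a and b). Strain, sex, age, temperature and pooling are not given in the labels used here. Unexposed rats were not analysed here, and every sample carries the cold exposure. Whether arrays a and b stem from different animals is not stated in the labels, so p-values measure only the spread between these arrays, which may be technical.

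Potassium channels let potassium leave the cell, which holds the resting membrane potential negative and ends each action potential. In chromaffin cells of the adrenal medulla, which release adrenaline and noradrenaline, they set how often the cell fires and how much calcium enters. Voltage-gated channels open on depolarisation, calcium-activated channels open when calcium enters, inward rectifiers pass current best near rest, and two-pore channels carry a steady background current. In the neighbouring adrenal cortex, two-pore and inward rectifier channels hold the resting potential of the hormone-making cells.

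The arrays were not alike in quality. The 2% trimmed mean intensity was 2501 on each array, but the median was 675 on the 7-day array, 1583 on 1-day array a and 593 on 1-day array b. The 3′ probe set of the beta-actin control exceeded the 5′ one, a gap that widens with RNA degradation, and their ratio was 8.87 on the 7-day array, 231 on 1-day array a and 6.11 on 1-day array b. Over the 75 channel genes the Spearman correlation was 0.87 between the 7-day array and 1-day array b, 0.42 between the 7-day array and 1-day array a, and 0.39 between the 1-day arrays. These correlations run across genes of single arrays and are descriptive. Values are therefore given for each 1-day array separately, and the fit on both 1-day arrays and the differences from array b alone have paragraphs of their own. The tissue label was checked against defining markers, and all 11 measured chromaffin markers were above the median on the 7-day array, 10 on 1-day array a and 11 on 1-day array b. Of all 14217 genes, 65.8% stood above it on the 7-day array, 60.0% on 1-day array a and 66.1% on 1-day array b. The adrenal cortex was present too, with 7 of 8 measured markers above the median on each array. These 8 cortex markers summed to 1330428 on the 7-day array, against 1206083 for the 11 chromaffin markers. On both 1-day arrays the chromaffin sum was the larger. Channel levels are therefore those of a mixed sample, not of chromaffin cells alone.

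Levels are given as linear intensity, or as a position, which is the log2(intensity + 16) of a probe set minus the median of all 31042 probe sets other than controls on the same array. Brightness depends on the probes as well as on the RNA, so positions of different genes give no order of abundance. Channel genes mostly lay in the lower part of each array. On the 7-day array 21 of 75 (28.0%) stood above the array median, against 65.8% of all 14217 genes chosen in the same way. On 1-day array a 24 of 75 (32.0%) stood above it, against 60.0% of all genes, and on 1-day array b 27 of 75 (36.0%), against 66.1%. On both the 7-day array and 1-day array b 20 of 75 (26.7%) did, against 63.6%. On all 3 arrays together 13 of 75 (17.3%) did, against 51.1% of all genes. Above it on no array were 38 of 75 (50.7%), against 3516 of all 14217 genes. With probe sets averaged per gene the shares were lower, at 20.0%, 26.7% and 24.0% of channel genes on the 7-day array and 1-day arrays a and b, against 59.9%, 52.0% and 60.2% of all genes. With the brightest probe set, the median position of all genes was 1.21 on the 7-day array, 0.40 on 1-day array a and 1.39 on 1-day array b. The median position of the channel genes was -0.66 on the 7-day array, -0.69 on 1-day array a and -1.04 on 1-day array b.

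**Figure D1:**
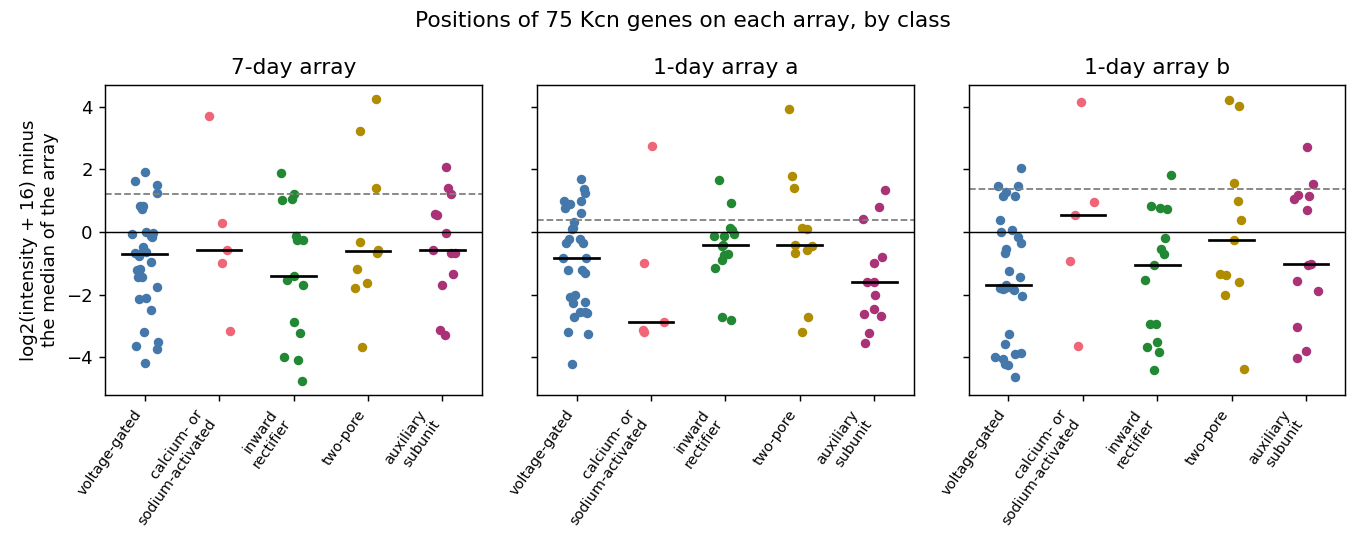
Position of each of the 75 Kcn genes (log2 distance from the array median) on the 7-day array and both 1-day arrays, by class. Points are genes, short bars class medians, the solid line the array median and the dashed line the median of all 14217 genes. Most points lie below the solid line on every array.

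The 13 genes above the median on all 3 arrays came from every class. They were the two-pore channels Kcnk3, Kcnk2 and Kcnk5, the inward rectifiers Kcnj11, Kcnj5 and Kcnj14, the calcium-activated channel Kcnma1, the voltage-gated subunits Kcng2, Kcnc4 and Kcns3, and the auxiliary subunits Kcnmb4, Kcnip1 and Kcnip3. With each gene taken as the mean of all its probe sets the number was 7, and with the median of annotated genes as the mark it was 7. Only 4 genes (5.33%) stood above the 75th percentile on all 3 arrays, against 28.6% of all genes, namely Kcnk3, Kcnma1, Kcnk2 and Kcnmb4.

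**Figure D2:**
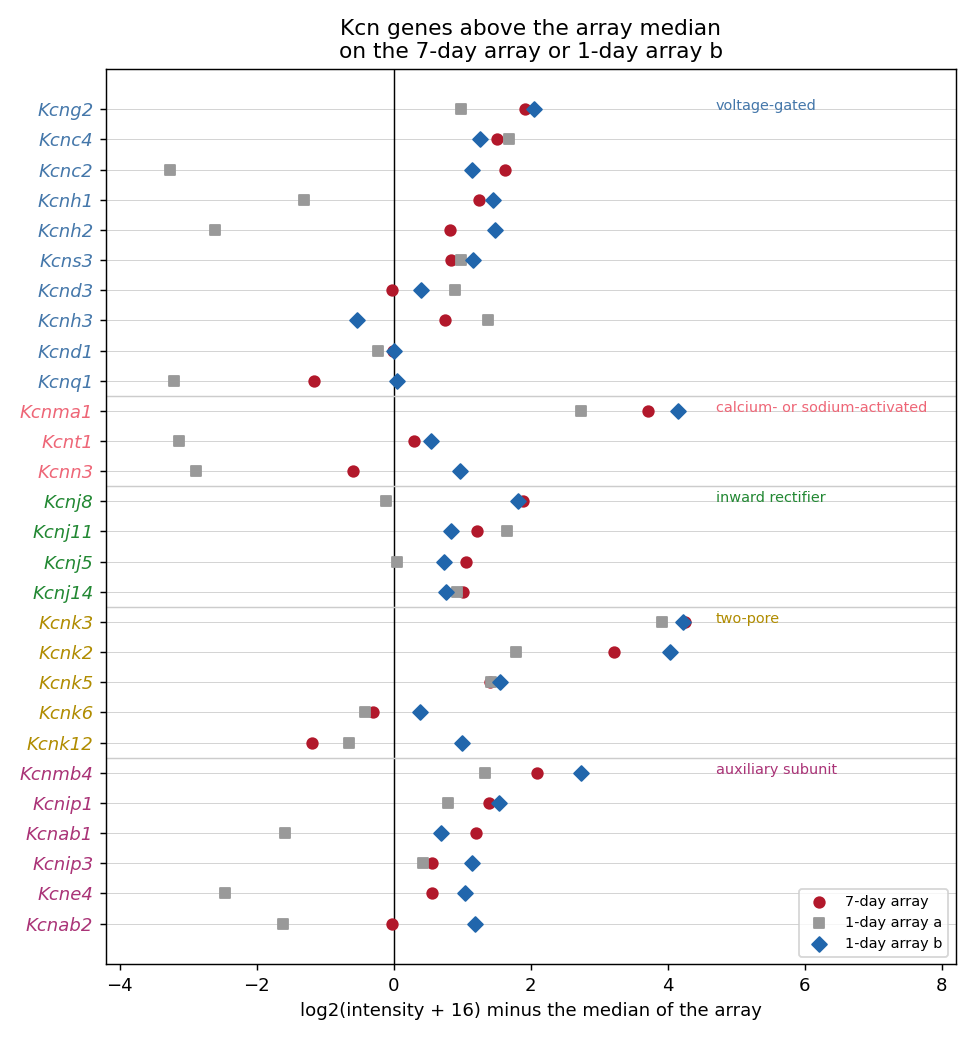
Position (log2 distance from the array median) of the 28 Kcn genes above the median on the 7-day array or 1-day array b, by class. Circles show the 7-day array, squares 1-day array a and diamonds 1-day array b. Kcnk3, Kcnma1 and Kcnk2 lie farthest right, and the squares of Kcnc2, Kcnh2, Kcnt1, Kcnn3 and Kcnq1 lie far to the left of the other symbols.

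Among two-pore channels, 3 of 11 stood above the median on the 7-day array, 5 on 1-day array a and 5 on 1-day array b. Kcnk3 encodes the acid-sensitive background channel TASK-1. It read 13109 on the 7-day array, against 24135 on 1-day array a and 11359 on 1-day array b. Its position was alike on all arrays, at 4.25 on the 7-day array and at 3.92 and 4.22 on 1-day arrays a and b. A second Kcnk3 probe set was also above the median on all 3, at 1777 on the 7-day array against 2154 and 1288 on 1-day arrays a and b, and the remaining one was below it on each.

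Kcnk2 encodes TREK-1, a background channel opened by stretch, warmth and lipids. It read 6409 on the 7-day array, against 5501 on 1-day array a and 9948 on 1-day array b. The 7-day value lay between the 1-day values, at -0.63 (log2) from array b and 0.22 from array a. The difference from array a was -0.06 with quantile normalisation and 1.43 with median centring, so its direction depends on the scaling. The other Kcnk2 probe set was below the median on all 3 arrays. Kcnk5, which encodes the channel TASK-2, read 1823 on the 7-day array, against 4244 and 1774 on 1-day arrays a and b.

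The remaining two-pore genes were dim or differed between arrays. Kcnk6 read 542 on the 7-day array, against 1185 and 782 on 1-day arrays a and b, and was above the median on array b alone. Kcnk12, of the THIK group, read 286 on the 7-day array, against 999 and 1206 on 1-day arrays a and b, lower than both. Kcnk9, which encodes the acid-sensitive channel TASK-3, read 438 on the 7-day array, against 1703 and 185 on 1-day arrays a and b. Kcnk9 thus stood above the median on array a alone, at a position of 0.10. Kcnk1 read 38.5 on the 7-day array, against 1061 and 227 on 1-day arrays a and b, and stood below the median on each.

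The calcium-activated class includes the large-conductance (BK) channel, which opens with calcium and voltage together and repolarises the chromaffin cell. Its pore gene Kcnma1 read 9073 on the 7-day array, against 10652 and 10766 on 1-day arrays a and b. At 7 days it read below both 1-day arrays. So did 4 of the 20 genes (20.0%, Kcnma1 included) above the median on both the 7-day array and 1-day array b. Of all 14217 genes, whatever their level, 25.8% read below both. The difference of Kcnma1 was -0.25 (log2) from array b and -0.23 from array a. A second Kcnma1 probe set agreed in sign (-0.25 from array b and -1.58 from array a). The remaining one was dim, at 370 on the 7-day array against 649 and 21.6 on 1-day arrays a and b.

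Kcnmb4 encodes the beta4 subunit of the BK channel, which changes its calcium sensitivity and gating speed. It read 2915 on the 7-day array, against 3998 and 4024 on 1-day arrays a and b. Both 1-day values lay above the 7-day value, by differences of -0.45 (array a) and -0.46 (array b) for 7 days minus 1 day. For Kcnma1 and Kcnmb4 the differences stayed below 0 against both arrays with quantile normalisation (-0.66 and -0.20 for Kcnma1, -0.48 and -0.36 for Kcnmb4, array a first). With each array centred on its median they turned to 0.98 and 0.76 against array a, since that step moves the 7-day array by 1.21 relative to array a and by -0.18 relative to array b. The other measured BK beta gene, Kcnmb1, of smooth muscle, read 54.6 on the 7-day array, against 121 and 21.5 on 1-day arrays a and b, below the median on each.

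The small- and intermediate-conductance channels, which open with calcium alone, were dim. Kcnn3 read 444 on the 7-day array, against 201 and 1173 on 1-day arrays a and b, and was above the median on array b alone. Kcnn1 read 61.1 on the 7-day array, against 794 and 33.0 on 1-day arrays a and b. Kcnn4 read 335 on the 7-day array, against 160 and 306 on 1-day arrays a and b. Kcnt1 encodes the sodium-activated channel Slack. It read 830 on the 7-day array, against 167 and 875 on 1-day arrays a and b, so that only array a placed this probe set below the median. The other Kcnt1 probe sets stood below it on all 3 arrays.

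Among inward rectifiers 4 of 15 stood above the median on each array, though not the same 4 on array a. The genes of the ATP-sensitive channel, which closes when ATP is high, were among them. Kcnj8, its pore subunit in blood vessel muscle and pericytes, read 2544 on the 7-day array, against 1458 and 2136 on 1-day arrays a and b. The 7-day value was the highest, but array a stood below its own median. Kcnj11, the pore subunit known from pancreatic beta cells, read 1582 on the 7-day array, against 5026 and 1074 on 1-day arrays a and b. Its probe set is of a kind that can also bind transcripts of other genes. No other Kcnj11 probe set was above the median on all 3 arrays. A second one read 969 on the 7-day array, against 393 and 427 on 1-day arrays a and b, higher than both. The remaining one read 675 on the 7-day array, against 3435 and 380. The sulfonylurea receptor partners of Kcnj8 and Kcnj11, Abcc9 and Abcc8, were above the median on all 3 arrays. Abcc9 read 4115 on the 7-day array, against 1742 and 5015 on 1-day arrays a and b, and Abcc8 read 2026 on the 7-day array, against 1722 and 1850.

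Kcnj5, a G protein-gated channel subunit that is mutated in aldosterone-producing tumours of the human adrenal cortex, read 1427 on the 7-day array, against 1645 and 996 on 1-day arrays a and b. The 7-day value was 0.51 (log2) above array b and -0.20 from array a, and the difference from array a turned to 0.84 with quantile normalisation and 1.01 with median centring. Its position on array a, 0.05, was the lowest of the members above that array's median, and Kcnj15 at -0.05 was next below. The other Kcnj5 probe set read 304 on the 7-day array, against 653 and 28.2 on 1-day arrays a and b, below the median on each. Of the other G protein-gated subunits of the fixed list, Kcnj3 read 225 on the 7-day array, against 1722 and 360 on 1-day arrays a and b, and was above the median on array a alone (position 0.12). Kcnj6 read 560 on the 7-day array, against 710 and 521 on 1-day arrays a and b, below the median on each. Kcnj14 read 1376 on the 7-day array, against 3008 and 1020 on 1-day arrays a and b. Kcnj10, a glial channel, read 27.3 on the 7-day array, against 1148 and 32.1 on 1-day arrays a and b.

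The voltage-gated class was the largest, with 31 genes, of which 7 stood above the median on the 7-day array, 11 on 1-day array a and 9 on 1-day array b. Of its 24 pore-forming genes, Kcnc4 alone was above on all 3 arrays. Kcnc4, of the fast Kv3 group, read 1956 on the 7-day array, against 5107 and 1446 on 1-day arrays a and b. The other Kcnc4 probe set was below the median on all 3 arrays. It stood at -0.66 (log2) from array b, against 0.43 for the chosen one. Kcnc1, of the Kv3 group as well, read 140 on the 7-day array, against 882 and 16.2 on 1-day arrays a and b, below the median on each. Kcng2 and Kcns3 were above it on all 3. They belong to the 7 modifier genes, whose products form no channel alone and alter Kv2 channels. Kcng2 read 2591 on the 7-day array, against 3148 and 2507 on 1-day arrays a and b. Its position was 1.92 on the 7-day array, and 0.98 and 2.05 on 1-day arrays a and b. The difference from array a, -0.28, turned to 0.93 with median centring. The other Kcng2 probe sets stood at -1.37 and -3.97 from array a.

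Further voltage-gated genes were bright on the 7-day array and 1-day array b and dim on 1-day array a. Kcnc2, also of the Kv3 group, read 2109 on the 7-day array, against 151 and 1330 on 1-day arrays a and b. Its 5 other probe sets stood below the median on both the 7-day array and 1-day array b. Kcnh1, of the ether-à-go-go family, read 1629 on the 7-day array, against 632 and 1653 on 1-day arrays a and b. Kcnh2, which encodes the ERG channel that slows repetitive firing, read 1205 on the 7-day array, against 247 and 1686 on 1-day arrays a and b. In all, 7 members were above the median on the 7-day array and 1-day array b but not on 1-day array a. Among all 14217 genes, 63.6% were above it on the 7-day array and 1-day array b, and 51.1% on all 3 arrays.

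The reverse pattern, above the median on array a alone, held for 9 genes, among them Kcnd2, Kcnq3 and Kcnq5. Of the 75 genes, 47 were below the median on the 7-day array and 1-day array b, and 38 were above it on no array. Of all 14217 genes, these were 4510 and 3516. The other Kcnq5 probe sets stood below the median on array a, at -0.27 and -1.71, and the other Kcnd2 one at -1.06. The other Kcnq3 probe set was above it there, at 0.64. Kcnq3 and Kcnq5 encode subunits of the M-current, which muscarinic receptors switch off. Kcnq5 read 432 on the 7-day array, against 3770 and 464 on 1-day arrays a and b. Kcnq3 read 388 on the 7-day array, against 1696 and 238 on 1-day arrays a and b. Kcnd2, of the fast-inactivating Kv4 group, read 614 on the 7-day array, against 2695 and 363 on 1-day arrays a and b. Kcnd3, of the same group, read 660 on the 7-day array, against 2968 and 786, and Kcnd1 lay nearest the median mark, at a position of -0.0037 on the 7-day array and 0.0038 on 1-day array b. Just outside it on array b was Kcnh6, at -0.16, and just inside it on the 7-day array was Kcnt1, at 0.29.

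Auxiliary subunits, which form no pore, had 5 of 13 genes above the median on the 7-day array, 3 on 1-day array a and 6 on 1-day array b. Beside Kcnmb4, the Kv4 partners Kcnip1 and Kcnip3 were above on all arrays. Kcnip1 read 1794 on the 7-day array, against 2748 and 1750 on 1-day arrays a and b. Kcnip3, whose product also represses transcription until calcium binds it, read 998 on the 7-day array, against 2130 and 1330 on 1-day arrays a and b. It was lower than both, but 0.13 (log2) above array a with median centring. Each has at least 1 other probe set, and these were below the median on the 7-day array and 1-day array b. Of the beta subunits of Kv1 channels, Kcnab1 read 1577 on the 7-day array, against 514 and 967 on 1-day arrays a and b, higher than both. The other Kcnab1 probe set read 620 on the 7-day array, against 1644 and 442, lower than on array a. Kcnab2 read 661 on the 7-day array, against 508 and 1373 on 1-day arrays a and b.

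**Figure D3:**
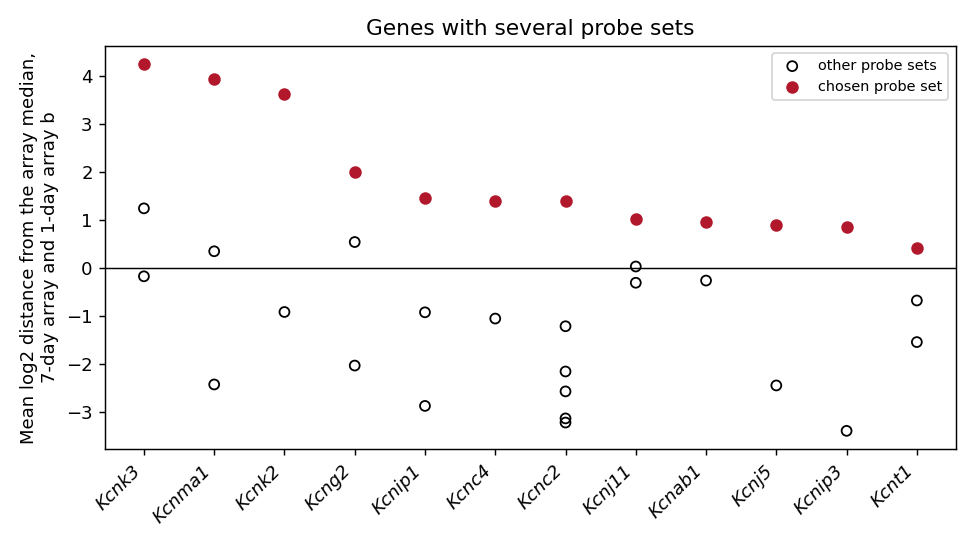
Mean position (log2 distance from the array median, 7-day array and 1-day array b) of each probe set of the 12 Kcn genes that have several and whose chosen one is above the median on both arrays. Filled points are chosen probe sets and open points the others, most of which lie below 0.

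Probe sets of 1 gene often disagreed. Of 31 genes with several, 12 had a chosen probe set above the median on both the 7-day array and 1-day array b. A further probe set was above it on both arrays for 3 of them, Kcnk3, Kcnma1 and Kcng2, and no gene had all its probe sets there. The sign of the difference between the 7-day array and 1-day array b was the same in all probe sets for 13 of the 31 genes. A gene below the median here may therefore have a probe set that reads its transcript poorly.

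Setting 7 days against 1 day of exposure asked whether any channel gene differed with its length. None passed limma: of the 25 channel genes that passed a filter at the median intensity, 0 had an adjusted p under 0.05 and 0 an unadjusted p under 0.05. Across the array, 0 of 15521 probe sets (0.00%) passed, and 70 had an unadjusted p under 0.05. The lowest unadjusted p in limma among channel genes was 0.412, for Kcnc2, whose difference from the 1-day mean was 2.16 ± 2.64 on the log2 scale (SE from the fit, adjusted p = 1.00). For the genes named as brightest the fitted differences were -0.34 ± 0.98 for Kcnk3, -0.24 ± 0.96 for Kcnma1, -0.21 ± 0.94 for Kcnk2 and -0.46 ± 0.90 for Kcnmb4. Each SE comes from the spread between the 1-day arrays, pooled over kept probe sets of like intensity. A gene's own fit has only 1 residual degree of freedom, and the single 7-day array was assumed to vary alike. In such intervals a 2-fold change in either direction lies within 2 SE of each of these values, so the missing calls do not show equal levels.

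By size, of the 25 filtered channel genes 0 exceeded both 1-day arrays by 2-fold or more and 0 lay as far below both, against 0.0324% and 0.227% of the 9252 filtered genes. Among all 75, filtered or not, 0 were above both (0.872% of all genes) and 5 (6.67%) below both (3.95% of all genes). Those 5 were Kcnk12, Kcng3, Kcnk1, Kcnh7 and Kcnj1, and on the 7-day array each stood below the median. With quantile normalisation there were 5, Kcnj3 in the place of Kcnk12, with median centring 4, without Kcnk12, and with a pseudocount of 64 there were 3, without Kcng3 and Kcnj1. Quantile normalisation and median centring also placed 3 dim genes, Kcna6, Kcnab3 and Kcns2, at least 2-fold above both 1-day arrays. Kcng3 read 59.7 on the 7-day array, against 1367 and 160 on 1-day arrays a and b, Kcnh7 44.2 against 1714 and 160, and Kcnj1 9.56 against 1462 and 64.2. For 50 of the 75 genes (66.7%) the 7-day value lay between those of the 1-day arrays. Another 10 (13.3%) read above both, against 22.7% of all genes, and 15 (20.0%) below both, against 25.8%. These 3 counts were 35, 20 and 20 with quantile normalisation and 40, 22 and 13 with median centring. Shares of all genes were not counted under the other scalings and pseudocounts. Median centring moves every gene by the same amount against a given array.

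Against 1-day array b alone, without array a, 1 of the 25 filtered channel genes was at least 2-fold higher (0.843% of filtered genes) and 1 lower (0.443%). Of all 75, 15 (20.0%) were higher by that size, against 9.98% of all genes, and 8 (10.7%) lower, against 4.68%. Of the 20 above the median on both arrays, 0 differed by 2-fold, while of all genes so placed 0.210% were higher and 0.232% lower by 2-fold or more. Their differences ran from -0.63 for Kcnk2 to 0.70 for Kcnab1, with a median of 0.04 and an SD of 0.40. All 9047 genes so placed had a median of -0.01 and an SD of 0.29. After Kcnab1, the largest were Kcnc2 (0.66), Kcnj11 (0.55) and Kcnj5 (0.51), and these 4 stayed above 0 with quantile normalisation (0.39 to 0.55) and with median centring (0.33 to 0.51). Against array a, the chosen probe sets of Kcnab1 and Kcnc2 read 1.59 and 3.67 higher, and those of Kcnj11 and Kcnj5 stood at -1.66 and -0.20. Every other probe set of Kcnab1 and Kcnc2 read lower than on array a, at -0.70 to -5.38. Kcnk2, Kcnh2 (-0.48) and Kcnmb4 were the lowest against array b and stayed below 0 under both. Against array a, Kcnh2 stood at 2.21. Kcnk3 stood at 0.21, and at 0.02 with median centring. Kcng2, Kcnk5 and Kcnip1, at 0.04 to 0.05, turned to between -0.15 and -0.13 with that centring. These values set 2 arrays side by side and test no condition, and no p-value is given.

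Larger differences were found among genes near or below the median. Among the 8 genes above the median on 1 of these arrays only, Kcnh3 read 1146 on the 7-day array, against 403 on 1-day array b (1.47, log2) and 4117 on 1-day array a. Kcnk12 (-2.02), Kcnn3 (-1.37), Kcnq1 (-1.04) and Kcnab2 (-1.04) were at least 2-fold lower than on array b. Against array a, Kcnn3, Kcnq1 and Kcnab2 read higher, by 1.08, 0.82 and 0.37, and Kcnk12 lower, by -1.75. Of the 47 genes below the median on both arrays, 14 (29.8%) were at least 2-fold higher on the 7-day array, against 28.6% of all genes so placed, and 4 (8.51%) at least 2-fold lower, against 12.9%. These shares were near the background. The SD of the difference was 1.19 for these 47 genes and 1.30 for all genes below the median on both arrays.

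**Figure D4:**
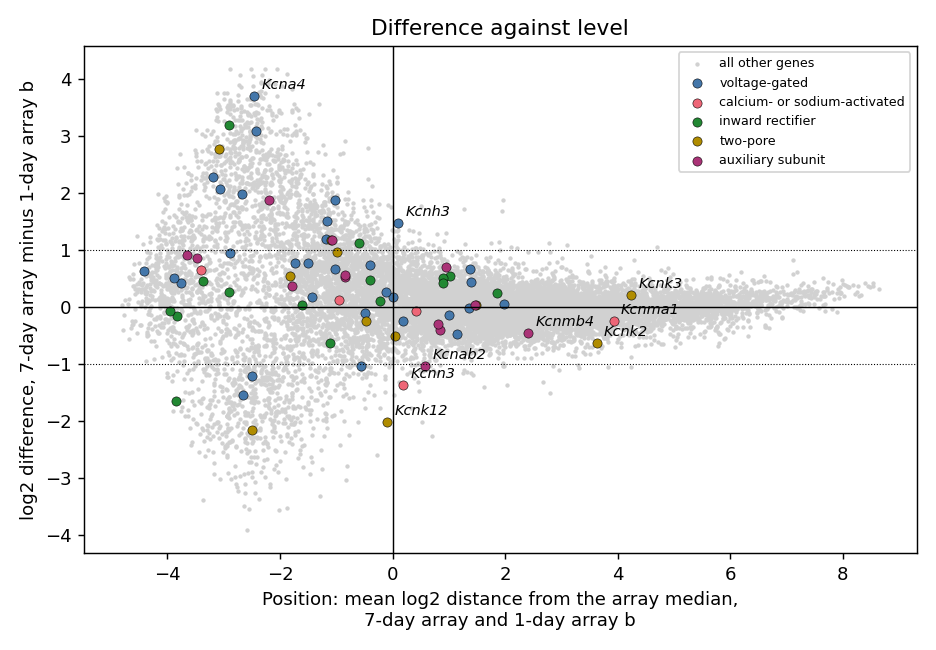
Difference between the 7-day array and 1-day array b (log2, vertical) against mean position on those arrays (log2 distance from the array median, horizontal) for the 75 Kcn genes, coloured by class, and all other genes in grey. Dotted lines mark 2-fold. Right of 1 on the horizontal axis every Kcn gene lies between the dotted lines, and the spread widens to the left.

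Of the fixed list of channel partners outside the Kcn family, 15 of 20 genes were measured, 9 of these passed the filter and 0 passed limma in either direction (adjusted p = 1.00). On all 3 arrays 7 were above the median. Dpp6, a Kv4 partner, read 8360 on the 7-day array, against 7154 and 8692 on 1-day arrays a and b. Calm2, which encodes the calcium sensor of the small-conductance channels, read 79096 on the 7-day array, against 13778 and 74153 on 1-day arrays a and b. Amigo1, a Kv2 partner, read 1487 on the 7-day array, against 1890 and 1409 on 1-day arrays a and b. The median difference of the 15 genes was 0.09 (log2) from array b and -0.58 from array a. Over all 14217 genes it was 0.04 from array b and -0.24 from array a, and over the 75 channel genes 0.42 and -1.11.

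In whole tissue, fewer cells of a type and less RNA per cell cannot be told apart, and marker genes of several cell types also differed between arrays. The summed intensity of 8 adrenal cortex markers was 1330428 on the 7-day array, against 1906759 and 1015001.5 on 1-day arrays a and b, with 8 of 8 higher at 7 days than on array b and 4 of 8 higher than on array a. Cyp17a1 was the dimmest, at 119 on the 7-day array against 70.5 and 66.0. The 11 chromaffin markers summed to 1206083 on the 7-day array, against 2393252 and 1048521, with 6 of 11 higher than on array b. The 6 smooth muscle and pericyte markers summed to 30472 on the 7-day array, against 14361 and 36530 on 1-day arrays a and b, with 5 of 6 lower than on array b. The 6 white blood cell markers summed to 16468 on the 7-day array, against 10264 and 22255, with 5 of 6 lower than on array b. Endothelial (5) and Schwann or sustentacular (5) markers summed to 34978.5 and 15759.5 on the 7-day array, against 35432 and 11863 on array a and 33259 and 14344 on array b. No marker was listed at 0. The part of these shifts in the differences of Kcnk3, Kcnj5, Kcnj8 and the other channel genes was not tested.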

How the data were processed

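Per the deposited table, each array has 1 linear intensity per probe set, which the authors had already summarised over probes. The near-equal trimmed means point to scaling by the authors. For software and settings, the sources used here give nothing. Such scaling hides differences in total RNA.

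Groups came from the sample titles. The 57 control probe sets were left out and values were turned into log2(intensity + 16), which shrinks differences of dim probe sets. Symbols came from the platform annotation (20826 probe sets with 1 symbol, 436 with several, 9780 with none), and updating through RefSeq gene identifiers (GRCr8, names only) changed 0 Kcn symbols. The filter kept 15521 probe sets with a mean over all 3 arrays at or above the median of such means. limma's eBayes, with a trend on intensity and a two-sided test (Benjamini-Hochberg at 0.05 over all kept probe sets), compared 7 days with 1 day, and the script was tested on simulated data. Sizes were counted at 2-fold.

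Values are given for the 4 highest genes of each class by position, the 5 highest and 5 lowest by difference from 1-day array b among the 28 above the median there or at 7 days, any at least 2-fold beyond both 1-day arrays, those nearest the median, and 26 fixed channel genes, of which 22 were members. Kcns3 was named after its values were seen, as were Kcna4 in a figure and Kcna6, Kcnab3 and Kcns2. The members and lists were chosen with earlier results of these data known. Alternatives were pseudocounts of 1 and 64, quantile normalisation, median centring, no filter, no trend, robust eBayes, other choices of probe set or mark, and the 1-day arrays left out in turn. A filter without 1-day array a, and other scalings and pseudocounts without a filter, were added after seeing the data. R 4.3.3, limma 3.58.1, Python 3.11.15 and matplotlib 3.10.9 were used. Precision is limited by the small number of arrays.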

Additional observations from a re-analysis of the deposited data

How the results depend on the processing

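No setting run gave a limma call for a channel gene: the count was 0 with pseudocounts of 1 and 64, quantile normalisation, median centring, no filter, no trend, robust eBayes, other choices of probe set and the added filter. Leaving out a 1-day array leaves limma no residual degrees of freedom, so that fit was not run. Filtered channel genes at least 2-fold higher at 7 days numbered 1 without array a and 4 without array b, against 0 with both. Those at least 2-fold lower numbered 1 without array a and 11 without array b, against 0 with both. The filter averages all 3 arrays, so a high value on array a can bring a gene in and also make it read lower than array a. Kcnq5 and Kcnd2, both among the 11, were below the median on the 7-day array and 1-day array b. Without array a, 0.843% of all filtered genes were higher by that size and 0.443% lower. Without array b no such share was counted, so the 4 and the 11 cannot be set against a background. Over all filtered genes, differences from array a spread more widely than those from array b. Without a filter 5 channel genes were 2-fold below both 1-day arrays, a count of 5 with a pseudocount of 1, 3 with 64, 5 with quantile normalisation and 4 with median centring, while 3 were 2-fold above both under each of those 2 scalings. Shares of all genes were counted in the main setting only, at 3.95% below both and 0.872% above both. Against 1-day array b alone the filtered count was 1 higher (Kcnh3) and 1 lower (Kcnab2). It became 15 higher and 8 lower without a filter, and the lower count was 0 with a pseudocount of 64, with quantile normalisation and with probe sets averaged per gene, and 2 with the added filter. Above the median of annotated genes stood 12 channel genes on the 7-day array, 10 on 1-day array b and 7 on all 3 arrays. Above the 75th percentile these were 4 on the 7-day array, 11 on the 1-day replicate a, 4 on replicate b and 4 on all 3, and with probe sets averaged per gene 7 stood above the median on all 3. A pseudocount keeps the sign of any difference, and median centring moves those from 1-day array b by only 0.18 (log2). Neither can therefore turn a 2-fold difference. With quantile normalisation no named difference of at least 2-fold from 1-day array b changed sign. Smaller ones did, such as those of Kcnn4 (0.13 to -0.28) and Kcnj6 (0.10 to -0.11). No paired analysis was possible, because the labels state no pairing of arrays and there was only 1 array at 7 days. Signal over background limits the dim members. Between the 7-day array and 1-day array b the SD of the difference was 1.19 for members below the median on both and 0.40 for those above it on both.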
